A study of Homo sapiens with 3 samples.

Results

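NKD2 and 9 other genes of the Wnt/β-catenin pathway were described in RNA-seq libraries labelled as the human liver cancer line HepG2. The 10 genes are NKD1, NKD2, CTNNB1, APC, AXIN1, AXIN2, LGR5, LEF1, TCF7 and RNF43, and each was found by its gene name as 1 row among the 39320 gene rows of the main chromosome sequences of GRCh38. RNA was sequenced in 3 libraries, replicates 1 to 3, which are all labelled as wild type and as polyA RNA, with no treatment and no second condition. The labels do not say that the replicates came from separate cultures, so the spread between them may be technical. All comparisons are therefore between genes within these libraries.

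Wnt proteins bind Frizzled receptors and LRP5 or LRP6 at the cell surface, and Dishevelled carries the signal inward. Without a signal, β-catenin, the product of CTNNB1, is marked for destruction by a complex built on AXIN1 or AXIN2 with APC. With a signal, β-catenin accumulates, enters the nucleus and drives transcription together with factors of the TCF/LEF family. Several of the genes it switches on damp the pathway in turn: AXIN2 rebuilds the destruction complex, RNF43 removes Frizzled from the surface, and the naked cuticle protein NKD1 binds Dishevelled. Its paralog NKD2 binds Dishevelled too, and whether the pathway induced NKD2 in these libraries was not tested. In liver, the pathway is known for patterning metabolism around the central vein, and CTNNB1 is often mutated in hepatocellular carcinoma.

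NKD2 had a higher level than the feedback genes AXIN2, RNF43 and NKD1, at 103 ± 4.07 TPM (SD, n = 3), and its paralog NKD1 was at or near 0. TPM values are scaled for transcript length and then to a total that all libraries share. CTNNB1, at 140.0 ± 7.08 TPM, was the only one of the 10 genes above NKD2 on this scale. AXIN2, LEF1, TCF7, LGR5 and RNF43, which textbooks list as direct targets of the pathway, were all below 5 TPM in each library.

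NKD2 is also the gene among the 10 for which the study lists an RT-qPCR primer pair. The pair is shown because it marks the stretch of NKD2 RNA that such an assay would read. Each primer is written 5′ to 3′, the forward one with the letters of the plus strand and the reverse one with those of the minus strand. The letters below were read from GENCODE v44 transcripts, where both primers matched without a mismatch.
NKD2 forward, chr5:1035449-1035469: acaggaggttgtctgcacacg
NKD2 reverse, chr5:1037995-1038015: gacttgaggaactgcttctcc

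In the canonical NKD2 transcript, which has 10 exons and 2182 nt, the forward primer lies in exon 8 and the reverse primer in exon 10, both within the coding region, and the product is 364 nt. In a coding transcript of 11 exons the same pair gives 543 nt, and the reverse primer lies outside its coding region. Of the 5 annotated NKD2 transcripts, 3 hold both primers, 1 holds the forward primer alone and 1 the reverse primer alone. The remaining transcript with both primers is annotated as retaining an intron. It also gives 364 nt, and neither primer lies in a coding region there. Among 252835 transcripts searched, no other gene held both (0 genes). The deposited tables give 1 value per gene, so the share of NKD2 RNA that holds the pair was not analysed here.

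Promoter windows from RefSeq (GRCh38.p14), each with 250 bases before and 50 after a transcription start, were found for 7 of the 10 genes, 10 windows in all. NKD1, AXIN2 and LGR5 had none. Shown are the windows of NKD2 and CTNNB1, the 2 genes with the highest TPM, and of RNF43, the lowest gene with a window, so that their base composition can be read beside their levels. They are written 5′ to 3′ on the gene's strand, with each CG dinucleotide in capitals.
NKD2, chr5:1008552-1008851, plus strand: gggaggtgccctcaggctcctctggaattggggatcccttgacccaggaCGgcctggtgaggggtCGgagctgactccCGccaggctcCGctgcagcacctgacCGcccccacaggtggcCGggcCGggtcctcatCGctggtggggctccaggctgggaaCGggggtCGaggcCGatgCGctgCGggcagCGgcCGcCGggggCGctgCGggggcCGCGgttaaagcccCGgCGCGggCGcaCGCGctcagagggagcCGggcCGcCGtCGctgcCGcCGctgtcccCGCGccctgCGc
CTNNB1, chr3:41199255-41199554, plus strand: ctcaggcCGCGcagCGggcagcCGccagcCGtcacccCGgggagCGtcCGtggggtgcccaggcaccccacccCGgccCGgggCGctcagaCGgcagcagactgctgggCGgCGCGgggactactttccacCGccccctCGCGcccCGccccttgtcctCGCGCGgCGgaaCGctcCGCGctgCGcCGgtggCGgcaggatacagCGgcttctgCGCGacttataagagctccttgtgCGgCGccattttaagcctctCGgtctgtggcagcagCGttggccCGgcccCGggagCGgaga
RNF43, chr17:58417485-58417784, minus strand: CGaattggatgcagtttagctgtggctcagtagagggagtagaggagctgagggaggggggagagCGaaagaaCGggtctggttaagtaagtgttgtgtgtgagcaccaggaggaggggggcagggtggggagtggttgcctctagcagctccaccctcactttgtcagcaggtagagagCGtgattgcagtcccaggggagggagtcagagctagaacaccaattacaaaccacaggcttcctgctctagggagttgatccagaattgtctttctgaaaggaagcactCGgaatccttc

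The NKD2 window held 77.0% G and C and 35 CG dinucleotides, and the CTNNB1 window 74.0% and 39. The RNF43 window shown held 54.3% and 5, and a second RNF43 start held 43.7% and 0. Over all 35116 promoter windows the median was 58.7% G and C, with quartiles at 47.0% and 68.0%, and 14 CG dinucleotides. The AXIN1 window was the richest of the 10, at 78.0% G and C with 44 CG dinucleotides, and the LEF1 window was below the median at 47.0% with 9. APC and TCF7 each had 2 windows, at 56.3% and 68.0% for APC and at 69.7% and 61.0% for TCF7. In the same order they held 14 and 23 CG dinucleotides for APC, and 25 and 3 for TCF7. A relation between base composition and level was not tested. The letters CTTTGA, the core that TCF/LEF factors are known to bind, were searched on both strands and occurred in 0 of the 10 windows, against 12.9% of all windows. The longer form CTTTGAT, which contains the first, occurred in 2.62% of all windows. This says only that the letters are not in these 300 bases. The 0 of 10 was not tested against the share of all windows, which were not matched for base composition. The RefSeq starts need not be the starts of the deposited gene rows.

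Facts of the libraries bear on these values. No table gives read counts, which leaves the depth unknown and the counting error of each value open. A relative measure that moves with depth, the largest coverage per FPKM of any gene, was 11.5 to 13.3 in the 3 libraries. Defining markers of hepatocytes and liver cancer were absent or nearly so. None of the 7 listed reached 1 TPM in any library (0 of 7), and GPC3, ALB, APOB, APOA1 and SERPINA1 were at 0 throughout. Their summed level was 0.0417 to 0.227 TPM, which goes against the label. Of 5 epithelial markers, KRT8 and KRT18 had means of 2609.6 and 2017 TPM, while CDH1 had 1.02 TPM and KRT19 and EPCAM had at most 0.165 and 0.0901 TPM in any library. Of 4 mesenchymal markers, VIM had 694, CDH2 27.1, ZEB1 11.6 and FN1 0.908 TPM. Of 2 blood markers, HBA1 had 39.6 TPM and PTPRC was listed at 0. Whether the culture is HepG2 was not tested. The values below therefore hold for the libraries labelled HepG2.

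At least 1 TPM in every library was reached by 6 of the 10 genes (60.0%), CTNNB1, NKD2, AXIN1, APC, AXIN2 and LEF1, against 59.5% of the 18743 protein-coding rows and 33.8% of all 39320 rows. The share of the 10 was near that of protein-coding genes. At least 10 TPM in every library was reached by 3 of the 10 (CTNNB1, NKD2 and AXIN1), against 40.4% of protein-coding rows. The median of the 10 mean levels was 3.54 TPM, and that of protein-coding rows 4.99 TPM.

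**Figure D1:**
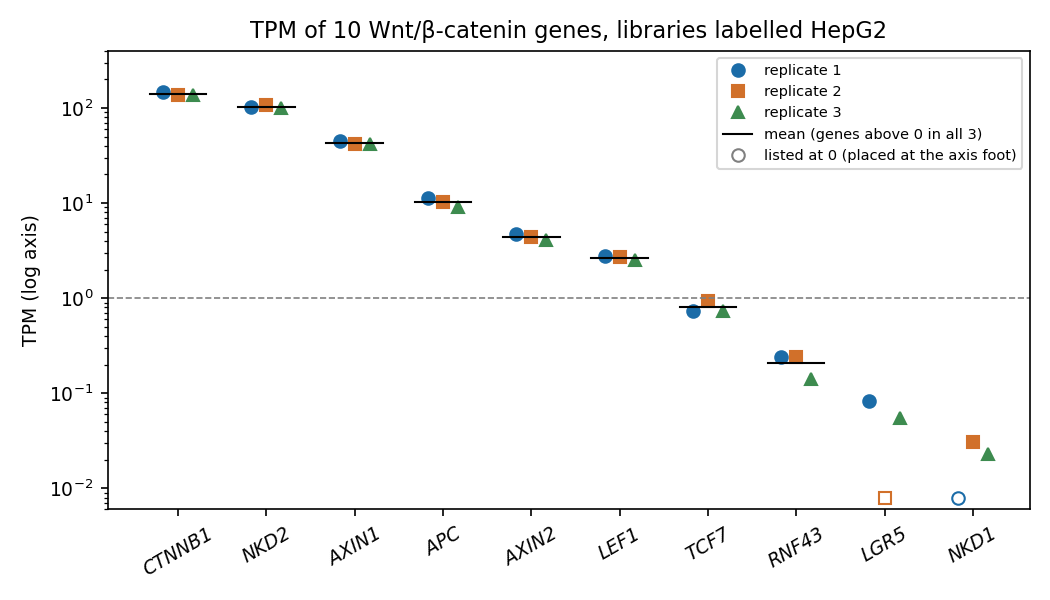
TPM of each of the 10 genes (log axis) in the 3 libraries labelled HepG2, 1 symbol per replicate, with a bar at the mean and a dashed line at 1 TPM; open symbols at the foot are libraries listed at 0. CTNNB1 and NKD2 sit near 100 TPM with closely spaced replicates, and LGR5 and NKD1 lie below 0.1 TPM.

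The naked cuticle genes were described first. NKD2, which binds Dishevelled and is also known for carrying TGFα to the cell membrane, had 102.2, 107 and 99.1 TPM in replicates 1, 2 and 3. On the FPKM scale, which is scaled for length and library size, it had 48.3, 51.2 and 47.5, a mean of 49.0 ± 1.98 FPKM (SD, n = 3). Replicate 2 was the highest library and replicate 3 the lowest on both scales. Its coefficient of variation in TPM was 3.96%, beside a median of 4.88% over the 8419 rows with a mean of at least 10 TPM.

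Among the 13753 rows whose mean reached 1 TPM, NKD2 ranked 1444th, above 89.5% of them. In the single libraries it stood above 89.2%, 90.0% and 89.1% of such rows. Among the 11315 protein-coding rows with such a mean it ranked 1358th. The gene therefore stood in the upper part of the distribution in each library.

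The deposited NKD2 row spans 29968 bp on chromosome 5 (plus strand, 1008845 to 1038812), and no other row overlaps it. A second NKD2 row, on an alternate sequence of the same chromosome, was listed at 0 in all 3 libraries. The nearest rows on either side were expressed at lower levels than NKD2. LOC100506688, which ends 11505 bp before NKD2 on the minus strand, had 21.4, 18.5 and 17.5 TPM in replicates 1, 2 and 3. SLC12A7, a potassium-chloride cotransporter gene that begins 11572 bp after NKD2 on the minus strand, had 35.7, 35.6 and 34.2 TPM.

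NKD1, the paralog of NKD2 and a textbook target of β-catenin, was listed at 0 in replicate 1, at 0.0309 TPM in replicate 2 and at 0.0230 TPM in replicate 3. All 3 values were far below 1 TPM. Its row spans 100854 bp on chromosome 16 (plus strand, 50548396 to 50649249). The nearest rows were also low: LINC02178 was above 0 in replicate 2 alone, at 0.105 TPM, and SNX20, a sorting nexin gene, was listed at 0 in all 3 libraries.

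Within each library, the log2 ratio of NKD2 to NKD1, computed on TPM + 0.1, was 9.998, 9.68 and 9.66 in replicates 1, 2 and 3, a mean of 9.78 ± 0.19 (SD, n = 3). The NKD2 level was higher in 3 of 3 libraries. An exact permutation test that flips the sign of each library's ratio, two-sided, gave p = 0.25, which stayed 0.25 after Benjamini-Hochberg adjustment over the 3 pairs of related genes compared. That is the smallest p that 3 libraries allow, so the design could not pass a threshold of 0.05. Since NKD1 was at or near 0, the size of the ratio depends on the added constant, and it was 6.67 on TPM + 1.

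The 3 rows whose levels were most like that of NKD2, by Euclidean distance of log2(TPM + 1) over the 3 libraries, were BAD at a distance of 0.0337, SLC39A7 at 0.0481 and TMEM126B at 0.0497. BAD, a BCL2 family gene, had 103 ± 2.64 TPM. SLC39A7, a zinc transporter gene, had 102.4 ± 1.75 TPM, and TMEM126B had 102.4 ± 2.45 TPM (SD, n = 3). This measure compares levels in 3 libraries of 1 condition.

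**Figure D2:**
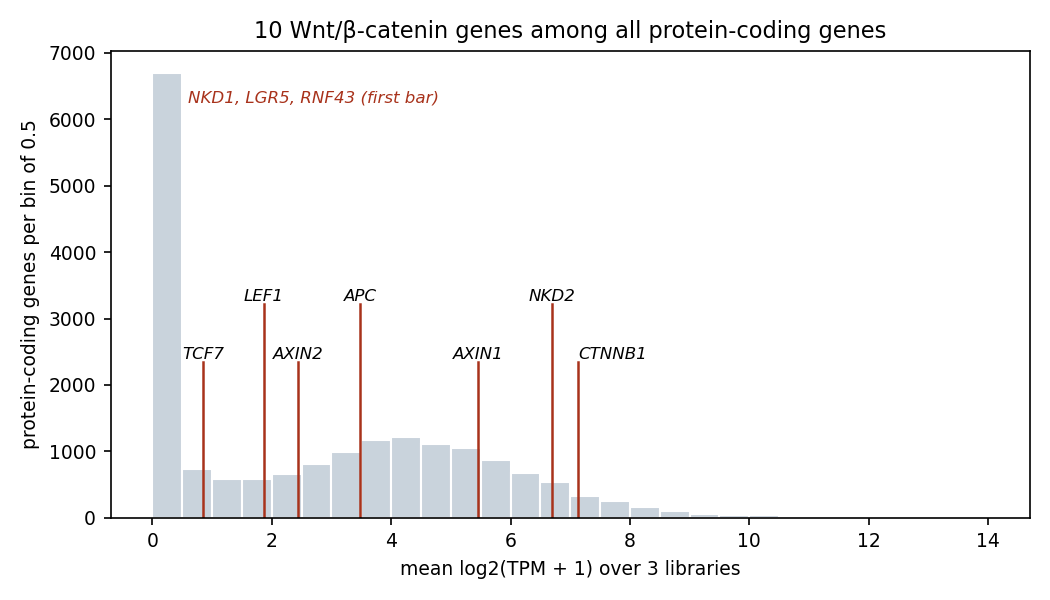
Histogram of the mean log2(TPM + 1) over 3 libraries of all 18743 protein-coding rows, in bins of 0.5, with a red line at each of the 7 genes above the first bin. NKD2 and CTNNB1 lie on the right slope of the expressed genes, APC and AXIN1 near the peak, and NKD1, LGR5 and RNF43 in the first bar.

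CTNNB1 had 148, 136 and 136 TPM in replicates 1, 2 and 3. It was the highest of the 10 genes in every library, and its lowest value was above the highest value of NKD2. By mean TPM it ranked 1027th and exceeded 92.5% of the 13753 rows. Its row lies on chromosome 3 (plus strand, 41199422 to 41240453).

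The order of CTNNB1 and NKD2 depended on the measure. By TPM the log2 ratio of NKD2 to CTNNB1 was -0.54, -0.34 and -0.46 in replicates 1, 2 and 3, a mean of -0.44 ± 0.10 (SD, n = 3), so that CTNNB1 was 1.36-fold higher. By coverage, the depth over a gene as deposited and not scaled for library size, NKD2 had 423, 435 and 360, and CTNNB1 had 119, 107 and 95.7. By that measure NKD2 was 3.79-fold higher, with a log2 ratio of 1.92 ± 0.09 (SD, n = 3). This pair was chosen after its values were seen, and it has no test.

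The ratio of coverage to FPKM differed between genes of the same library, so the 2 measures do not scale a gene in the same way. Folds between genes by coverage are therefore not on the scale of those by TPM. Relative to the highest ratio in the same library, NKD2 stood at 0.660, 0.661 and 0.661 in replicates 1, 2 and 3, and CTNNB1 at 0.128, 0.128 and 0.128. For both genes the libraries gave nearly the same value. Among the others, AXIN1 stood at 0.240, APC at 0.386, AXIN2 at 0.796 and LEF1 at 0.826 in replicate 1. TCF7, a gene near the low end, varied more, at 0.180, 0.238 and 0.154. How the transcripts of each gene enter the 2 measures was not tested.

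**Figure D3:**
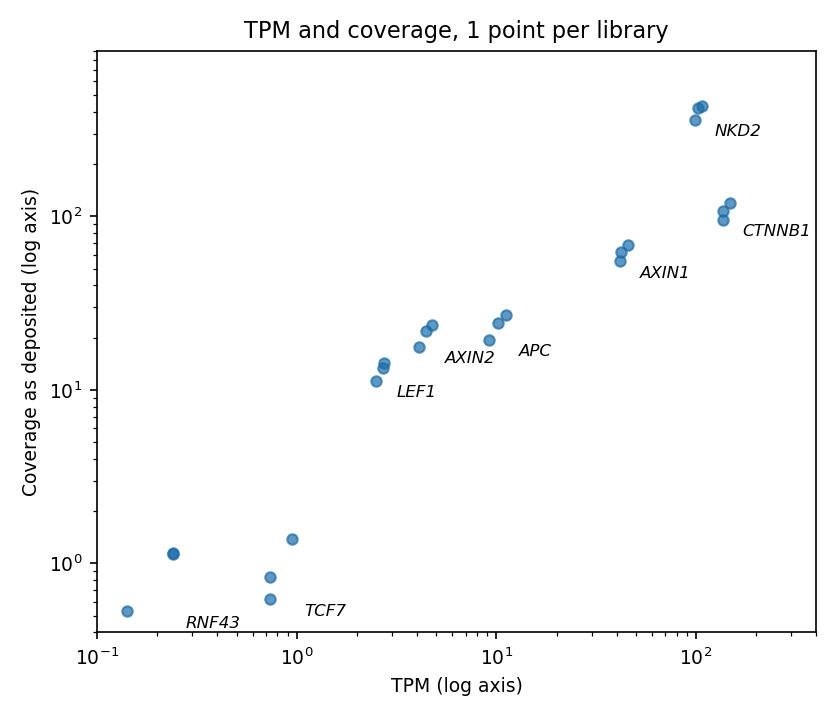
Coverage as deposited against TPM (both log axes), 1 point per library, for the 8 genes above 0 in all 3 libraries. CTNNB1 lies to the right of NKD2 by TPM and below it by coverage, and APC and AXIN2 are apart by TPM and overlap by coverage.

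The scaffolds of the destruction complex followed. AXIN1, the constitutive scaffold, had 45.4, 42.2 and 41.8 TPM in replicates 1, 2 and 3, a mean of 43.1 ± 2.02 TPM (SD, n = 3). AXIN2, the scaffold that the pathway induces, had 4.75, 4.43 and 4.11 TPM, a mean of 4.43 ± 0.322 TPM. The values of the 2 genes did not overlap. AXIN1 lies on chromosome 16 (minus strand, 287440 to 355226), and AXIN2 on chromosome 17 (minus strand, 65528563 to 65561648).

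The log2 ratio of AXIN2 to AXIN1 on TPM + 0.1 was -3.23, -3.22 and -3.31, a mean of -3.26 ± 0.05 (SD, n = 3), so that AXIN1 was 9.55-fold higher. It was higher in 3 of 3 libraries, with p = 0.25 and an adjusted p of 0.25 by the same exact permutation test. By coverage AXIN1 was 2.94-fold higher, with a log2 ratio of -1.55 ± 0.07.

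APC, the large protein that joins β-catenin to the complex, had 11.2, 10.2 and 9.17 TPM, a mean of 10.2 ± 1.02 TPM (SD, n = 3). Replicate 3 was below 10 TPM, so APC did not count among the genes with at least 10 TPM in every library. Its coefficient of variation of 9.96% was the largest among the 6 genes above 1 TPM. APC lies on chromosome 5 (plus strand, 112707505 to 112846239). By coverage its values, 27.1, 24.2 and 19.4, overlapped those of AXIN2, at 23.7, 21.7 and 17.7, although by TPM they were apart.

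All 9 of the other genes listed for the destruction complex reached 1 TPM in every library, and 6 reached 10 TPM. CSNK1A1, the kinase that primes β-catenin, had 182 ± 10.3 TPM, and GSK3A, a kinase of the GSK3 pair, had 68.4 ± 2.66 TPM. TNKS2, a tankyrase that turns axin over, had 35.4 ± 3.46 TPM (SD, n = 3). The median of the list was 32.4 TPM. For this and the lists that follow, the shares of all protein-coding rows are 59.5% at 1 TPM or more, 40.4% at 10 TPM or more and 20% listed at 0, each in every library, and no list was tested against them.

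At the level of Dishevelled, where the naked cuticle proteins act, 3 of 6 listed genes reached 1 TPM, and these 3 were the Dishevelled genes themselves. DVL1 had 80.9 ± 4.93 TPM, DVL2 43.6 ± 1.65 TPM and DVL3 38.2 ± 1.24 TPM (SD, n = 3), each below NKD2 by TPM. By coverage DVL1 was above NKD2 in every library, at 490, 444 and 376 against 423, 435 and 360. DVL2 and DVL3 were below NKD2 by coverage as well. Of the 3 DACT genes, which also regulate Dishevelled, 2 were listed at 0 in every library.

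RNF43, a surface ubiquitin ligase that removes Frizzled, had 0.241, 0.241 and 0.142 TPM in replicates 1, 2 and 3, a mean of 0.208 ± 0.0571 TPM (SD, n = 3). LGR5, a receptor for R-spondins and a stem cell marker, had 0.0824 TPM in replicate 1, was listed at 0 in replicate 2 and had 0.0545 TPM in replicate 3. Every value of both genes was below 1 TPM. RNF43 lies on chromosome 17 (minus strand, 58352500 to 58418894), and shares 1228 bp with TSPOAP1-AS1 on the opposite strand, which had at most 0.0496 TPM. LGR5 lies on chromosome 12 (plus strand, 71439770 to 71586310), and shares 46189 bp with LOC105369833, which was listed at 0 in all 3 libraries. The strand setting is not given in the sources used here, so reads in a shared stretch could belong to either gene.

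Of the 7 other genes listed as R-spondins and their receptors, 3 reached 1 TPM. LGR4, the relative of LGR5, had 48.5 ± 4.15 TPM, ZNRF3, the relative of RNF43, had 4.23 ± 0.235 TPM, and RSPO3, an R-spondin, had 1.25 ± 0.260 TPM (SD, n = 3). Among 15 receptors and coreceptors, 12 reached 1 TPM and 7 reached 10 TPM. LRP5 had 44.4 ± 1.51 TPM, RYK 40.8 ± 3.51 TPM and FZD6 35.6 ± 2.09 TPM.

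Of 19 Wnt ligands, 6 reached 1 TPM (31.6%, against 59.5% of protein-coding rows), 4 reached 10 TPM (21.1%, against 40.4%) and 6 were listed at 0 in all 3 libraries (31.6%, against 20%). The highest was WNT10B, with 98.7 ± 5.85 TPM (SD, n = 3), whose row overlaps that of WNT1. WNT5A had 50.5 ± 1.57 TPM and WNT7B 35.0 ± 3.08 TPM. Both genes needed to release Wnt proteins reached 10 TPM, the carrier WLS at 69.6 ± 4.06 TPM and the acyltransferase PORCN at 10.7 ± 0.247 TPM. Among 15 secreted or surface inhibitors, 5 reached 1 TPM (33.3%, against 59.5%) and 7 were at 0 throughout (46.7%, against 20%). DKK1, which blocks LRP5 and LRP6, had 36.0 ± 2.92 TPM, TPBG 10.4 ± 0.109 TPM and KREMEN2 9.62 ± 0.548 TPM.

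LEF1 and TCF7 are DNA-binding partners of β-catenin and also targets of the pathway. LEF1 had 2.75, 2.70 and 2.50 TPM, a mean of 2.65 ± 0.133 TPM (SD, n = 3). TCF7 had 0.737, 0.944 and 0.734 TPM, a mean of 0.805 ± 0.120 TPM. LEF1 was above 1 TPM and TCF7 below it in every library, and their values did not overlap. LEF1 lies on chromosome 4 (minus strand, 108047545 to 108168956), and TCF7 on chromosome 5 (plus strand, 134114681 to 134148229).

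The log2 ratio of LEF1 to TCF7 on TPM + 0.1 was 1.77, 1.42 and 1.64, a mean of 1.61 ± 0.17 (SD, n = 3), so that LEF1 was 3.05-fold higher. It was higher in 3 of 3 libraries, with p = 0.25 and an adjusted p of 0.25 by the exact permutation test. By coverage LEF1 was 13.0-fold higher, with a log2 ratio of 3.70 ± 0.45. The antisense row LEF1-AS1, which shares 1432 bp with LEF1, had at most 0.0849 TPM.

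Of 11 other nuclear partners, 10 reached 1 TPM, among them TCF7L2, the remaining expressed TCF factor, at 10.8 ± 0.239 TPM, which was named after its value was seen. The 3 highest were BCL9L, a coactivator, with 65.7 ± 1.34 TPM, TLE4, a corepressor, with 57.9 ± 3.65 TPM, and PYGO2, a coactivator, with 38.4 ± 2.48 TPM (SD, n = 3). TCF7L1, the fourth factor of the family, was the gene of this list below 1 TPM.

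Of 8 other transcripts known as targets, 6 reached 1 TPM. The cell cycle gene CCND1 had 111 ± 4.51 TPM, MYC 95.6 ± 1.07 TPM and the surface receptor CD44 92.4 ± 5.90 TPM (SD, n = 3). The rest of the list was lower, with means of 11.8 TPM for SOX4, 4.76 for BMP4, 1.62 for SP5 and 1.29 for TNFRSF19. TNFRSF19 was below 1 TPM in replicate 3, at 0.942 TPM, and ASCL2 was listed at 0 in every library. By TPM the mean of CCND1 was above that of NKD2, and those of MYC and CD44 were below it. By coverage MYC was above NKD2 in every library, at 533, 518 and 449 against 423, 435 and 360. CCND1 stayed above NKD2 by coverage, and CD44 below it. Of 9 targets known from liver, 4 reached 1 TPM. Glutamine synthetase, GLUL, had 66.0 ± 0.823 TPM, ornithine aminotransferase, OAT, 50.9 ± 8.30 TPM and the transcription factor gene TBX3 12.8 ± 0.950 TPM. SLCO1B3 had 12.0 ± 0.667 TPM. CYP2E1 had a mean of 0.964 TPM, and RHBG had at most 0.0165 TPM in any library. The other 3 of the 9, CYP1A2, SLC1A2 and REG3A, were listed at 0 throughout. In both lists of targets, genes beyond the 3 highest were named after their values were seen.

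Over the 11 pathway lists, 64 of 106 genes (60.4%) reached 1 TPM in every library, near the 59.5% of protein-coding rows. Their median level was 4.16 TPM, beside 4.99 TPM over protein-coding rows, and 23 genes (21.7%) were listed at 0 in all 3 libraries, near the 20% of protein-coding rows.

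**Figure D4:**
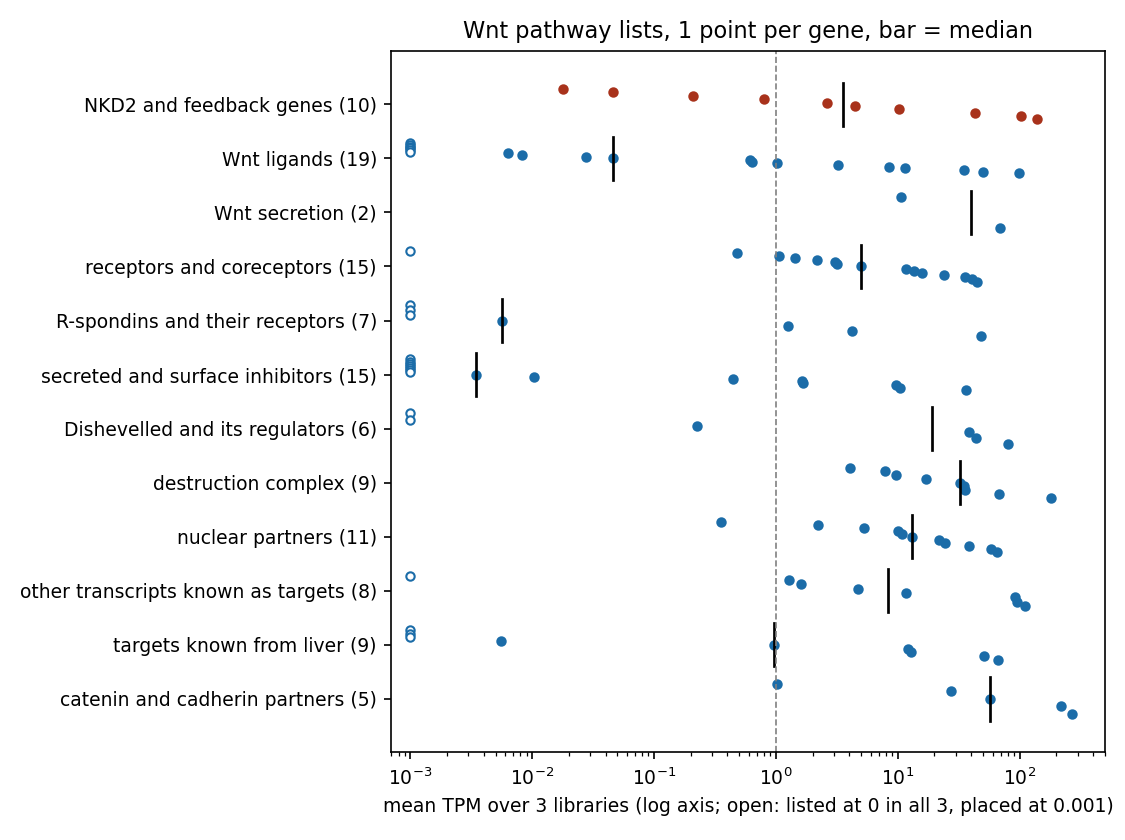
Mean TPM over 3 libraries (log axis) of the 10 genes (red) and of the genes of 11 Wnt pathway lists (blue), 1 point per gene, with a black bar at each median, open points for genes listed at 0 and a dashed line at 1 TPM. The lists of the destruction complex, Wnt secretion, and catenin and cadherin partners lie wholly above 1 TPM. The ligands and inhibitors are among the lists that extend down to 0.

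By mean TPM the 10 genes stood in the order CTNNB1, NKD2, AXIN1, APC, AXIN2, LEF1, TCF7, RNF43, LGR5 and NKD1. The ranges over the libraries of neighbouring genes in this order overlapped for LGR5 and NKD1 alone. By coverage NKD2 came first, and the ranges overlapped for APC and AXIN2, for TCF7 and RNF43, and for LGR5 and NKD1. Among the 6 genes whose mean reached 1 TPM, the replicates of 0 spanned more than 1 on the log2(TPM + 1) scale, against 1.26% of the 13753 rows with such a mean. The other 4, TCF7, RNF43, LGR5 and NKD1, were too low for their range to exceed 1 on this scale. By TPM, replicate 1 was the highest library for CTNNB1, APC, AXIN1, AXIN2, LGR5, LEF1 and RNF43, and replicate 2 for NKD2, NKD1 and TCF7. For LGR5, RNF43 and NKD1 this rests on values near 0, and RNF43 was at 0.2409 TPM in replicate 1 and 0.2405 TPM in replicate 2. The share of all rows with replicate 1 highest was not computed, so the pattern is not read as a trait of the 10 genes. Replicate 1 also had the highest ratio of coverage to FPKM, and the part of depth in this pattern was not tested.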

How the data were processed

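RNA-seq was analysed in 3 libraries labelled wild-type HepG2. Per the study's methods and processing notes, the authors trimmed reads with Trim Galore 0.6.2, checked them with FastQC 0.11.8, and mapped them to GRCh38 with STAR 2.6.1a. The notes also list StringTie. The annotation and strand setting are not given in the sources used here. The authors deposited 1 gene table per library with coverage (depth over a gene, not scaled for library size), FPKM and TPM. The deposited FPKM is scaled for length and library size. The deposited TPM was used as it stands. No table holds counts, so the depth is unknown, and precision is the SD over 3 libraries.

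Of 43389 rows with the same coordinates in all 3 tables, 39320 on the main references, without alternate or unplaced sequences named with a _ sign, were used, and 18743 were protein-coding by RefSeq symbol. Levels were described without a test. Related genes were compared by the log2 ratio within a library, with a constant of 0.1 added to TPM, and an exact permutation test over sign flips, two-sided. The members and lists were chosen with earlier results of these data known. Named were the 10 genes, the 3 genes with the highest mean TPM in each list, rows that overlap the 10 genes or lie beside NKD2 and NKD1, and the 3 rows closest to NKD2 in level. In the lists of targets, the other genes were also named, after their values were seen. The range calculation was tested on simulated data. Alternatives were other scalings, constants, minimum levels and measures, and leaving out each replicate. Primers were searched in GENCODE v44 transcripts with 0 mismatches, and promoters were taken from RefSeq. Python 3.11.15, numpy 2.4.6, pandas 2.3.3, scipy 1.17.1 and matplotlib 3.10.9 were used.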

Additional observations from a re-analysis of the deposited data

How the results depend on the processing

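The mean level of NKD2 rose from 103 to 128.7 TPM when TPM was rescaled without mitochondrially encoded genes, a setting that raised each of the 10 genes by a factor of 1.25; under median-of-ratios scaling the factors were 0.990 to 1.01. Over the sets of 2 libraries the mean lay between 100.6 and 104.7 TPM. The number of the 10 genes at the minimum level was 6 at 1 TPM, 8 at 0.1 TPM and 3 at 10 TPM. The share of protein-coding rows was 59.5% at 1 TPM and 40.4% at 10 TPM. It was not computed at 0.1 TPM, so the count there has no share to be read against. The percentile of NKD2 moved from 89.5 to 92.3 with a minimum mean of 0.1 TPM, to 96.3 with no minimum and to 88.2 by coverage, and over the sets of 2 libraries it lay between 89.2 and 89.7. The log2 ratio of NKD2 to CTNNB1, which was added after the data were seen, was -0.44 on the TPM scale and, in the opposite direction, 1.92 on that of coverage. The cause of this reversal was not tested. The 3 ratios between related genes kept their direction under the other constant, FPKM, coverage and the leaving out of each replicate, and none could give a p below 0.25. These ratios pair 2 genes within each library. No comparison between groups of samples was possible because there is only 1 group. The unknown depth limits NKD1 and LGR5, each listed at 0 in 1 library, as no detection limit can be given.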

Other observations

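β-catenin also joins cadherins to the cytoskeleton, a role apart from Wnt signalling, and 4 of 5 listed catenin and cadherin partners reached 10 TPM in every library (80.0%, against 40.4% of protein-coding rows, with no test). CTNNA1, the α-catenin that links β-catenin to actin, had 267 ± 13.7 TPM, and JUP, the plakoglobin gene closely related to CTNNB1, had 219 ± 5.97 TPM (SD, n = 3). Both were above CTNNB1, at 140.0 ± 7.08 TPM. CTNND1, which steadies cadherins at the membrane, had 57.6 ± 2.46 TPM. Of the cadherins, which were named after their values were seen, CDH2 had 27.1 ± 1.58 TPM and CDH1 1.02 ± 0.0382 TPM; CDH1 was below 1 TPM in replicate 2, at 0.980 TPM. The median of the list was 57.6 TPM.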
